A study of Mus musculus with 6 samples.

Results

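The 33 genes described here act in meiotic recombination and chromosome pairing, and their transcripts were read in whole testis RNA from mice with and without Prss37. They were chosen by their known roles, and every non-control probe of the array carrying one of these gene names or a synonym was taken. Of the 33 genes, 31 had a probe, 46 probes in all, and 29 passed the filter on dim signals and entered a fit of 18975 genes. Rad21l and Spata22 had no probe under these names, and the probes of Prdm9 and Mei4 were not well above background on any array. The RNA came from 3 Prss37KO and 3 WT male mice of 6 to 8 weeks on a C57BL/6 background, each on 1 single-colour Agilent array. The Prss37KO mice are labelled as knockouts of a gene of the serine protease family. No label says which part of the gene was removed, and the description field of these samples names Prss55KO instead. The submitters count mice as n, and an array is treated here as an animal.

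In meiotic prophase, spermatocytes hold sister chromatids together with cohesin rings that carry meiosis-specific subunits. PRDM9 marks sites at which SPO11 and its partners cut both DNA strands. The meiotic recombinase DMC1, helped by BRCA2 and HOP2-MND1, then searches for the homologous chromosome. The synaptonemal complex, a protein zipper, holds the homologues in register while a few of these sites are turned into crossovers. In the adult testis this programme runs in every wave of spermatocytes beside spermatogonia, spermatids and somatic cells. In RNA from whole testes, fewer cells of a type and less RNA per cell cannot be told apart.

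The upstream sequences of the cohesin genes are shown because Rec8 was the one member past the test while its partners Smc1b and Stag3 were not. Each window is the 250 bases before the transcription start in RefSeq's GRCm38.p6 table, on the strand of the gene. Capitals mark TCCCGC, the core bound by the germline gene repressor E2F6, or the E-box CACGTG, searched on both strands, and no other motif is marked.
Rec8, chr14:55617916-55618165, plus strand: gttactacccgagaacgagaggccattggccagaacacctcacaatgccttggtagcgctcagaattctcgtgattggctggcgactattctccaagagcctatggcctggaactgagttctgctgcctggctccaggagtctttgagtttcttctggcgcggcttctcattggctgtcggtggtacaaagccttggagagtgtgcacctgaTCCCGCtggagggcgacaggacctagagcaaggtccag
Smc1b, chr15:85131958-85132207, minus strand: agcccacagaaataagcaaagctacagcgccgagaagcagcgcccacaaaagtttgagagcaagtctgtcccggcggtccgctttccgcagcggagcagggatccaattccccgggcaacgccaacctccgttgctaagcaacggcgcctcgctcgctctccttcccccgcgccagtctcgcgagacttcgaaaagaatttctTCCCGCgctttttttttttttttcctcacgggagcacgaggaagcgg
Stag3, chr5:138280259-138280508, plus strand: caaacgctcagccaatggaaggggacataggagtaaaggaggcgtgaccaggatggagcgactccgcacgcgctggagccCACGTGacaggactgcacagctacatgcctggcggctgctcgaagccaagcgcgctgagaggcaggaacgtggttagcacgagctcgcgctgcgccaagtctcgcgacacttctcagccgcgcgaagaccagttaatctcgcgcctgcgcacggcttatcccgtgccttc

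The marked motif was TCCCGC in Rec8 and Smc1b and the E-box in Stag3. The 3 windows differed in their number of CG dinucleotides, with 10 in Rec8, 25 in Smc1b and 26 in Stag3. The window of Rad21l, the cohesin gene that was not measured here, held 1 CG and none of the 4 motifs searched, and is not shown. A promoter entry was found for 29 members, which are not the same 29 as those tested. Spo11, Tex11, Tex15 and Meiob lacked an entry, while the untested Prdm9, Mei4, Rad21l and Spata22 had an entry. Over the 29 members with an entry in the promoter table, TCCCGC on either strand was found in 15 (51.7%), Dmc1, Sycp3, Brca2 and Prdm9 among them, against 16.9% of all 27025 genes and 21.6% of the 17492 protein-coding genes, with the first listed promoter standing for a gene. CACGTG was found in 5 members (17.2%), namely Sycp1, Sycp3, Stag3, Tex12 and Hormad1, against 6.05% of all genes. A motif read by the meiotic inducer STRA8, CNCCTCAG, was found in 3 (10.3% against 6.39%), and a MYB core, AACNGNC, in 11 (37.9% against 27.6%). The median number of CG dinucleotides was 16 in the members, 10 in protein-coding genes and 6 in all genes. These are shares of letters in a window, set side by side with no test. TCCCGC was held by Rec8, the called member, and by Dmc1, which had the lowest difference but was not called (limma adjusted p = 0.079). Whether any motif goes with the differences of the members was not tested.

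**Figure D1:**
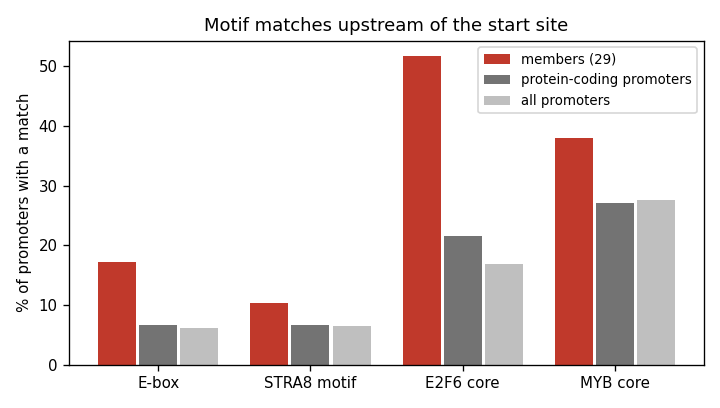
Share of genes, in percent, whose 250 bases upstream of the start site held each of the 4 motifs on either strand, for the 29 members with an entry, all protein-coding genes and all genes. The E2F6 core was found in 51.7% of the members against 21.6% of protein-coding genes, the widest gap of the 4 motifs in percentage points.

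Markers of the labelled tissue were present. All 10 markers fixed for pachytene spermatocytes, 13 of 13 for round spermatids and 13 of 13 for Sertoli cells passed the filter, while 0 of the 4 epididymis markers with a probe did. Between 69.2% and 71.4% of spots were well above background and none was saturated. The processed signal was divided by each array's 75th percentile and brought back to a common scale, and this scaled signal is what is given for each animal below. It compares a gene between animals and not one gene with another. The probe of the targeted gene Prss37 read 67592, 73824 and 71562 in knockout replicates 1 to 3 and 116135, 107860 and 124390 in wild type, a log2 difference of -0.71 (SE 0.07, limma adjusted p = 0.024). That call was lost without knockout replicate 1 (0.072), 2 (0.12) or 3 (0.13) or wild-type replicate 1 (0.097), without a filter on dim probes (0.093) and with the replicate block (0.13), while the difference ran from -0.66 to -0.76 over all alternatives. Prss55, read after its name was seen in the labels, had 50223, 55504 and 53996 against 58442, 53238 and 67082, with overlap (-0.16, adjusted p = 0.36). Since the deleted part is not given, the Prss37 probe may lie outside it and then checks no label. Both genotypes were on both slides, replicates 1 and 2 on the first (slide 1) and replicate 3 on the other (slide 2).

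Of the 29 tested members, 1 was higher in knockout testes at a limma adjusted p under 0.05 and 0 were lower. Over all genes tested, 1.21% were called higher and 1.25% lower, 2.46% in all. The called member was Rec8. At unadjusted p under 0.05 there were 7 members (24.1%), beside 23.9% of all genes, and at an adjusted p under 0.1 there were 2, beside 9.84% of all genes. The genotypes did not overlap in 7 members (24.1%), 3 higher and 4 lower in knockout, where 31.6% of all genes had no overlap. The members were thus called about as often as other genes. Their differences ran from -0.18 to 0.35 on the log2 scale with a median of -0.02, 14 above and 15 below 0, beside a median of -0.002 over all genes.

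**Figure D2:**
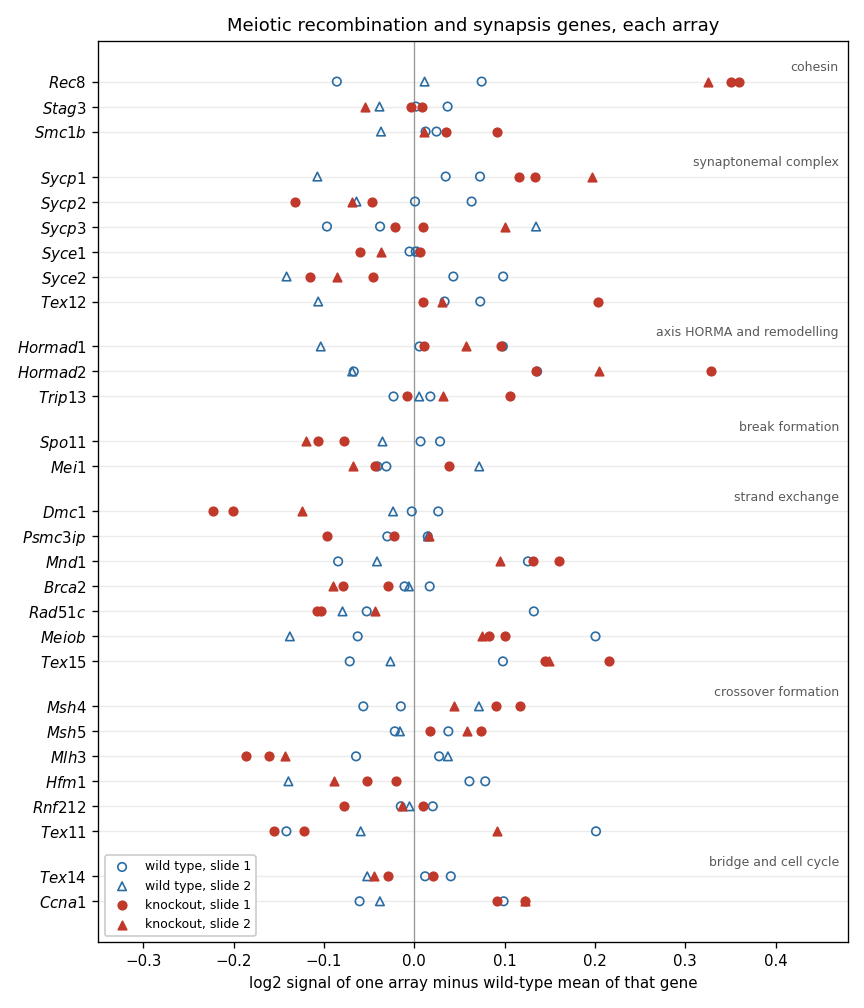
Signal of each of the 29 tested members on each array, as log2 difference from the wild-type mean of that gene, grouped by role; filled symbols are knockout, open symbols wild type, triangles slide 2. Rec8 stands furthest to the right with no overlap, and Sycp1 and Tex15 are also higher without overlap. Dmc1, Spo11, Brca2 and Mlh3 lie lower without overlap, and the other members overlap between genotypes.

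Within a genotype the members varied little. The median SD over the 3 animals was 0.04 on the log2 scale in knockout and 0.07 in wild type, beside 0.05 and 0.09 over all genes. The median member lay at 0.01, 0.01 and 0.02 in knockout replicates 1 to 3 and at 0.01, 0.02 and -0.04 in wild-type replicates 1 to 3, relative to the wild-type mean of each gene. Wild-type replicate 3 was the lowest wild-type animal for 14 members and the highest for 6. The 95% interval of the difference lay within 1.2-fold in either direction for 19 of the 29 members and within 1.5-fold for all 29, Rec8 included.

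Cohesin opened the list of roles. Rec8, the meiotic kleisin that closes the cohesin ring and must be protected at centromeres until the second division, was higher in knockout testes. Its brighter probe (mm9 chr14:56244160-56244219) read 57688, 58038 and 56649 in knockout replicates 1 to 3 and 42621, 47632 and 45590 in wild-type replicates 1 to 3. All 3 knockout animals lay above all 3 wild-type animals, and their means were 57458 ± 723 (SD, n = 3) and 45281 ± 2520 (SD, n = 3). The log2 difference was 0.35 (SE 0.05), a 1.27-fold higher level, with a limma adjusted p of 0.042.

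A second, dimmer Rec8 probe gave the same order. It reaches over an intron, from 56243204 to 56243588 on chromosome 14 (mm9, plus strand) for its 60 bases, and it is shown since it reads spliced Rec8 RNA at another place of the transcript; 1 of its 3 reading frames is open.
Rec8 probe: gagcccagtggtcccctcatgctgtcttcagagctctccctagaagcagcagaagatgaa
It read 7148, 6673 and 6992 in knockout and 4720, 5030 and 5353 in wild type. The genotypes did not overlap here either. The log2 difference was 0.46, with an adjusted p of 0.042 when each of 28301 probes was tested by itself, where 0.466% of probes were called higher. In that fit the brighter probe had an adjusted p of 0.051. The 2 probes are read from the same animals, so they do not replicate each other.

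The partners of REC8 in the ring did not pass the test. Stag3, the meiotic stromal antigen subunit that binds REC8, read 43717, 44068 and 42208 in knockout and 44956, 43879 and 42666 in wild type, with a log2 difference of -0.02 (95% interval -0.12 to 0.09). Smc1b, the meiotic SMC subunit, read 38751, 40296 and 38096 against 38469, 38148 and 36865, a difference of 0.05 (-0.06 to 0.15). In both genes the genotypes overlapped. Rad21, the kleisin of dividing cells that REC8 replaces in much of the meiotic cohesin, was chosen for mention after its values were seen. It read 6543, 6892 and 6693 in knockout and 8479, 7272 and 8509 in wild type, a difference of -0.27 that missed the threshold (adjusted p = 0.10). Whether the Rec8 difference is unlike that of its partners was not tested.

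**Figure D3:**
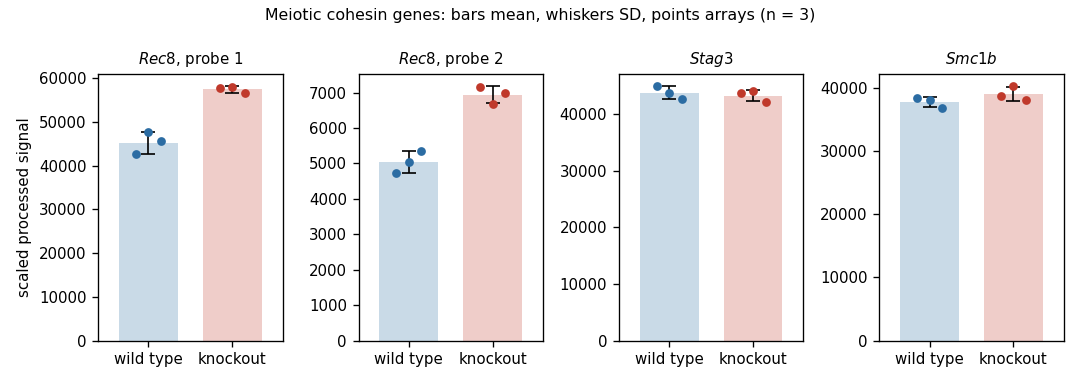
Scaled processed signal of the meiotic cohesin genes in wild-type and knockout testes, with bars for the mean, whiskers for the SD and points for the 3 animals of each genotype; Rec8 probe 1 is the brighter one. Both Rec8 probes are higher in all knockout animals, at 57458 against 45281 and 6938 against 5034 on average, while Stag3 and Smc1b overlap.

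The Rec8 call lay close to the threshold. Slide 1 alone gave 0.36 at the brighter probe and slide 2 alone 0.31. Blocking on the slide raised the adjusted p to 0.064. With the deposited table it was 0.053, with quantile normalization 0.053, and without a filter on dim probes 0.13. Without knockout replicate 1, 2 or 3 the adjusted p was 0.13, 0.16 and 0.15, without wild-type replicate 1 or 3 it was 0.11 and 0.060, and without wild-type replicate 2 it was 0.036. The difference itself stayed between 0.30 and 0.40 in every one of the 19 alternatives, and the call was kept in 8 of them. No gene near Rec8 was called, with 0 of 33 tested genes within 0.5 Mb on either side, beside 2.46% of all genes. Of the 33, 20 lay above 0, with a median difference of 0.03. Of the genes next to Rec8, the interferon factor gene Irf9 had -0.09 and the importin gene Ipo4, on the opposite strand, 0.07. This neighbourhood was looked at after the Rec8 call had been seen.

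**Figure D4:**
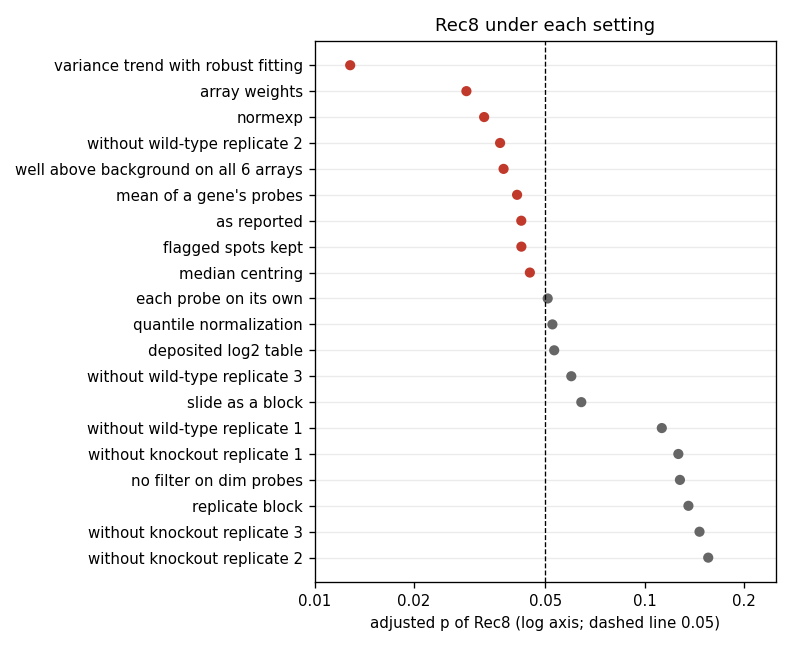
Adjusted p of Rec8 (log axis) as reported and in 19 alternatives, with the threshold of 0.05 as a dashed line. The values run from 0.013 with a variance trend and robust fitting to 0.16 without knockout replicate 2, and 8 of the 19 alternatives lie under the line.

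The 6 synaptonemal complex genes were all tested and none passed, with a median of -0.0005 on the log2 scale, 3 above and 3 below 0. Sycp1, the transverse filament that spans the zipper, read 7355, 7266 and 7683 in knockout and 6868, 7052 and 6224 in wild type. All knockout animals lay above the wild type, the log2 difference was 0.15 (SE 0.06), and the adjusted p was 0.20. Slide 1 gave 0.07 and slide 2, with wild-type replicate 3 as its one wild-type array, gave 0.30. The genes of axial and central proteins gave smaller values. Sycp3, the axial core protein used to stain spermatocyte spreads, had 0.03 (95% interval -0.15 to 0.21), and Sycp2, its partner, had -0.08, -0.06 and 0.10 at its 3 probes. Among central element genes, Syce1 had -0.03 (-0.12 to 0.06), Syce2 -0.08 and Tex12 0.08, the last with 0.09 at its other tested probe. Another probe named for Tex12 was 1 of 6 member probes that were not well above background on any array. It lies on the opposite strand to the other Tex12 probes.

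Genes of the HORMA-domain axis, which keep unsynapsed chromosomes under surveillance, had 3 of 3 values above 0 at their brightest probes and none passed. Hormad2 read 2026, 1772 and 1859 in knockout and 1540, 1773 and 1538 in wild type, with a difference of 0.22 (SE 0.08, adjusted p = 0.17). The lowest knockout animal fell among the wild types, just under wild-type replicate 2. Hormad1 had 0.05 with overlap at its brighter probe and -0.13 without overlap at the other, so its direction was not settled. Trip13, the ATPase that strips HORMAD proteins from synapsed axes, had 0.04 (-0.07 to 0.15).

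Break formation was read by 2 of its 4 genes. Spo11, the enzyme that makes the breaks, was lower in all knockout animals, with 4407, 4497 and 4369 against 4769, 4841 and 4632 in wild type. The log2 difference was -0.10 at this probe and -0.10 at the other, which also had no overlap, and the adjusted p was 0.19. The genotypes were thus apart at both places of the transcript, by a small difference that was not called. Mei1, needed for break formation, had -0.02 (-0.15 to 0.10). The probes of Prdm9, the histone methyltransferase that places the breaks, and of Mei4, a partner of SPO11, read between 5.95 and 16.5 on all arrays, where the dimmest probe well above background read 28.8 to 36.0, so no level was compared.

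Strand exchange held the lowest and some of the highest differences. Dmc1, the meiotic recombinase, read 690, 680 and 728 in knockout and 808, 792 and 781 in wild type. All knockout animals lay below all wild types, with a difference of -0.18 (SE 0.04) and an adjusted p of 0.079, which missed the threshold. It was -0.22 on slide 1 and -0.10 on slide 2. Brca2, which loads the recombinases, also had no overlap, with -0.07 at its brighter probe and -0.19 at the other (adjusted p = 0.36 for the first). Rad51c, a strand exchange factor, had -0.08 with overlap.

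The accessory factors of strand exchange were split. Psmc3ip and Mnd1 encode HOP2 and MND1, which act as a pair to help DMC1 capture the homologue. Psmc3ip had -0.03 and -0.02 at its 2 probes, while Mnd1 had 0.13 (adjusted p = 0.29), with 852, 835 and 814 in knockout and 719, 832 and 741 in wild type. The knockout animals thus overlapped the wild type in Mnd1 through wild-type replicate 2. Tex15, needed for loading recombinases and for silencing transposons, read 4362, 4153 and 4167 against 3576, 4022 and 3689, without overlap. Its difference was 0.17 (SE 0.06, adjusted p = 0.15), alike on slide 1 (0.17) and slide 2 (0.18). Meiob, a single-strand binding protein, had 0.09, and its wild-type animals ran from 9147 to 11566, wider than the knockout range of 10602 to 10787.

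Of the 6 crossover genes, none passed, 2 were above and 4 below 0. Mlh3, a MutL gene needed for crossovers, read 1468, 1442 and 1485 in knockout and 1672, 1569 and 1683 in wild type, without overlap. Its difference was -0.16 (SE 0.04) with an adjusted p of 0.10, alike on slide 1 (-0.16) and slide 2 (-0.18), but its other probe had -0.08 with overlap. The MutS genes, whose proteins stabilise recombination intermediates, lay slightly above 0, with 0.08 in Msh4 and 0.05 in Msh5. A dimmer Msh5 probe had -0.09. Hfm1, a helicase, had -0.05, Rnf212, which stabilises crossover sites, -0.03, and Tex11, an X-linked crossover factor, -0.06 with the widest interval of the members (-0.33 to 0.21). The Tex11 probe read 34.4 to 44.0 on the 6 arrays, close to the lowest signals well above background (28.8 to 36.0). Tex11 is the one X-linked gene of the 33, the other 32 being autosomal.

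Tex14, which keeps germ cells joined by intercellular bridges, had -0.02 (-0.12 to 0.09). Ccna1, the cyclin that drives spermatocytes out of prophase, had 0.11 (adjusted p = 0.27), with 20798, 21239 and 21245 in knockout and 18710, 20898 and 19005 in wild type. The knockout animals overlapped wild-type replicate 2 there as in Mnd1. Over all members, 20 of 29 had the same sign on both slides, 12 higher and 8 lower. Slide 2 held 1 array per genotype, and the share over all genes was not computed, so this count has no baseline. Of the 10 members with 2 or more tested probes, Rec8, Spo11, Brca2, Mlh3, Psmc3ip, Tex12 and Tex14 had 1 sign at all of them.

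**Figure D5:**
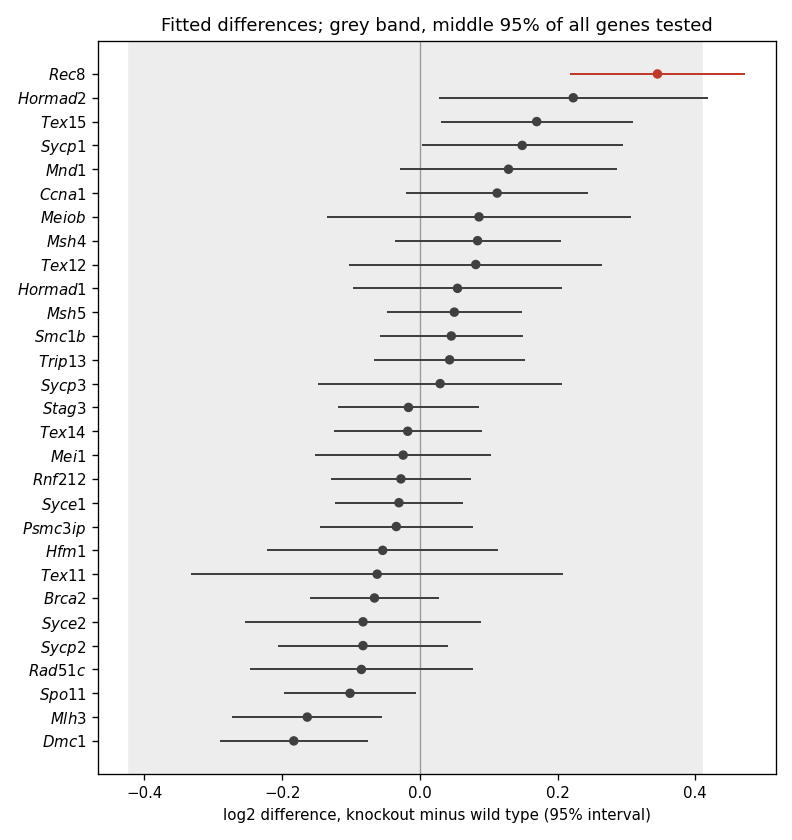
Fitted log2 difference of each of the 29 tested members, knockout minus wild type, with its 95% interval; the grey band holds the middle 95% of all genes tested, from -0.42 to 0.41. Every member lies inside the band, Rec8 (red, the called member) at 0.35 and Dmc1 at -0.18.

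The other genes of the pathway were read from 8 lists of 131 genes in all, which share no gene with the members. Of these, 120 were tested, 0 were called higher and 1 lower, and 34 (28.3%) had an unadjusted p under 0.05, beside 1.21%, 1.25% and 23.9% of all genes. Their median difference was -0.03, 52 above and 68 below 0. The called gene was Bub1b (probe at mm9 chr2:118466830-118466889), a spindle checkpoint kinase that delays chromosome separation. It read 1798, 1845 and 1803 in knockout and 2658, 2461 and 2420 in wild type, a 1.38-fold lower level without overlap (log2 difference -0.47, SE 0.05, adjusted p = 0.031). The call was lost without knockout replicate 1 (0.097), 2 (0.15) or 3 (0.14) or wild-type replicate 1 (0.084), without a filter on dim probes (0.11) and with the replicate block (0.13), while the difference ran from -0.41 to -0.49 over all alternatives. With array weights, with a variance trend and robust fitting, or without wild-type replicate 2, 2 pathway genes were called higher and 3 lower. All genes called under these settings were 644 higher and 529 lower, 691 and 579, and 442 and 337.

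In the remaining lists the 2 genes of smallest p are given with their log2 difference and adjusted p, and none passed. Of the synaptonemal complex and telomere attachment list (11 tested, median -0.03), these were Kash5, which ties telomeres to dynein (0.16, 0.13), and the telomere attachment gene Terb2 (-0.17, 0.14). The Terb2 probe (mm9 chr2:122031555-122031614) lies on the same chromosome as the Bub1b probe (chr2:118466830-118466889), and both genes were lower without overlap. Whether their position plays a part in these values was not tested. Of break formation and end processing (13 tested, median -0.06), they were the damage kinase gene Atm (-0.22, 0.078) and Iho1, an axis partner of the break machinery (-0.15, 0.11). Strand exchange (23 tested, median -0.04) had the strand exchange gene Xrcc3 (-0.23, 0.10) and the translocase gene Rad54b (0.14, 0.13). Crossover and resolution genes (15 tested, median 0.03) had the nuclease subunit gene Slx1b (-0.25, 0.068) and the resolvase gene Gen1 (0.20, 0.086).

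Among general cohesin genes (17 tested, median -0.03), Stag2 had 0.23 (0.096) and Rad21 -0.27 (0.10). Prophase checkpoint genes (11 tested, median 0.02) had H2ax, the histone phosphorylated at breaks and over the sex chromosomes (0.205, 0.083), and the kinase gene Atr (-0.15, 0.15). In the meiotic entry list (9 tested, median -0.04), Stra8, the inducer of meiotic entry, read 6196, 6228 and 6185 in knockout and 9396, 7581 and 8059 in wild type. Stra8 had no overlap, a difference of -0.42 and an adjusted p of 0.058, and Meioc, which keeps cells in prophase, had -0.13 (0.11). The Stra8 probe (mm9 chr6:34889231-34889290) lies on the same chromosome as the Prss37 probe (chr6:40464853-40464912). Whether this plays a part in the Stra8 value was not tested. Meiotic division genes (21 tested, Bub1b included) had a median of -0.03. Of these, 11 (52.4%) had no overlap, 7 higher and 4 lower, beside 31.6% of all genes. A limma unadjusted p under 0.05 was found in 8 (38.1%), beside 23.9% of all genes.

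Markers of cells that carry or border these transcripts were read beside the members. Pachytene spermatocyte markers had a median of -0.01 over 10 tested genes, 4 above 0, with none called. Their differences ran from -0.58 to 0.08. Of the 10, 2 (20%) had no overlap, 0 higher and 2 lower, beside 31.6% of all genes. Their summed scaled signal was 733517 to 803704 in knockout and 745309 to 760534 in wild type. Spermatogonial markers summed to 23210 to 23822 in knockout and 24475 to 26734 in wild type, without overlap, with a median of -0.03 over the 9 tested of 12 genes, 4 of them above 0. Round spermatid markers had a median of 0.09, 10 of 13 above 0 and none called, and summed to 1966670 to 2181400 in knockout and 1955480 to 2088240 in wild type. Sertoli markers summed to 232727 to 236834 against 218289 to 223248, also without overlap, with a median of 0.02 and 8 of 13 above 0. A sum is set mostly by its brightest probes. Taken singly, 6 of 13 Sertoli markers (46.2%) had no overlap, 3 higher and 3 lower, beside 31.6% of all genes. Of the 9 tested spermatogonial markers, 3 (33.3%) had no overlap, 0 higher and 3 lower. Macrophage markers had a median of 0.16, with 10 of 13 above 0 and none called, and summed to 112009 to 146791 against 124337 to 148463.

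In 3 further lists 1 marker each was called, and these are named after their values were seen. The B cell marker Ms4a1 was higher (0.59, adjusted p = 0.034), 1 of 6 tested lymphocyte markers, of which 3 were above 0. The 6 lymphocyte markers ran from -0.35 to 1.25, and 3 (50%) had no overlap, 3 higher and 0 lower, beside 31.6% of all genes. They summed to 4175 to 4360 in knockout and 3582 to 3945 in wild type, without overlap. The haem synthesis gene Alas2 was higher (0.53, 0.039), 1 of 2 tested erythroid markers, of which 1 was above 0 and the other had -0.25. The lipid droplet gene Cidea was lower (-0.42, 0.041), 1 of 5 tested adipocyte markers, of which 2 were above 0. Leydig (8 tested, median -0.01), peritubular (5, -0.03) and endothelial markers (5, -0.004) had none called. The part of the marked cell types in the values of Rec8, Dmc1 and the other members was not tested.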

How the data were processed

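Each sample was 1 array of testis RNA, amplified and labelled with Cy3 per the labels' protocols. Spot intensity values were deposited by the authors as output of Agilent's Feature Extraction software, version 10.7.3.1 per the file headers, with background subtracted and surface trends removed. A table of log2 values deposited by the authors had a median of 7.72 in each column. Its sorted values were nearly the same in every column, as after quantile normalization (largest gap from knockout replicate 1 0.0013). Each column followed the log2 processed signals of its own array (lowest r 0.99987). The scale and centring of the deposited values are thus known from the values alone. Other spot columns, such as flags, were used as deposited per the file headers.

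Control spots and outlier flags (86 to 159 spots per array) were left out. Processed signals were put on the log2 scale, centred on the 75th percentile of their array, and averaged where a probe had several spots. Testing required a probe to be well above background on all unflagged arrays of 1 genotype or both, and the brightest tested probe stood for a gene. Names came from unversioned accessions (27668 probes), symbols (5589) or synonyms (471) of RefSeq's GRCm38.p6 table, and 7446 probes kept the file's own name. Probe coordinates are mm9. Genotypes were compared with lmFit and eBayes of limma 3.58.1 under R 4.3.3, and p-values were adjusted over all genes by Benjamini and Hochberg (threshold 0.05). Precision is limited by having 3 arrays per genotype. The genotype fit was tested on simulated signals with independent noise. Probe naming, flags, the filter on dim probes, the choice of probe and slide effects were not covered by it. The members, lists, motifs and alternatives were chosen with earlier results of these data known. All members were named, and from each pathway list the called genes or else the 2 of smallest p. Alternatives were other normalizations, filters, probe rules, variance models, blocks, and each array left out; those for Bub1b, Prss37 and the pathway counts were added after seeing the data. Some items are not reported here.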

Additional observations from a re-analysis of the deposited data

How the results depend on the processing

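The count of 1 member called higher was 0 under 5 alternatives, namely the deposited table, quantile normalization, no filter on dim probes, a slide block and the replicate block, and 0 to 1 when an array was left out. The count of 0 members called lower was 1 (Dmc1) at adjusted p under 0.1. The median member moved from -0.017 to 0.012 without a filter on dim probes, where 31 members were tested, and ran from -0.016 to 0.010 with single arrays left out. Over all genes, the 230 higher and 237 lower became 644 and 529 under array weights, 691 and 579 under a variance trend with robust fitting, 125 and 150 when a gene's probes were averaged, 30 and 49 under a slide block, 2 and 6 without a filter, 959 and 908 at adjusted p under 0.1, and 132 higher when probes were tested singly. With single arrays left out there were between 0 and 442 higher genes and between 2 and 337 lower. The cause was not tested.

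Of the 28 uncalled members, 9 changed sign in some alternative and were called in none: Syce1 (0.020), Trip13 (-0.0023) and Tex11 (0.0043) under normexp, Hormad1 (-0.035) and Msh5 (-0.018) when probes were averaged. With single arrays left out, Stag3 ran from -0.036 to 0.0023, Sycp3 from -0.019 to 0.097, Mei1 from -0.056 to 0.012, Tex11 from -0.14 to 0.039 and Tex14 from -0.044 to 0.0025. Deviations of same-numbered animals correlated at -0.03, -0.03 and 0.16, not over 0.1 in every pair, so the numbers were not taken to pair them. The 0.16 is of replicate 3, the arrays of slide 2, and within slide 1 the differently numbered pairs had 0.14 and 0.11. With the replicate block 0 genes were higher and 2 lower, and the adjusted p was 0.14 for Rec8.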
